A study of Mus musculus with 8 samples.

Results

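Cultured mouse hippocampal neurons were compared between 300 min and 180 min of bicuculline, to ask which late responses to raised network activity held, grew or receded between these times. The comparison used 4 of the 8 arrays of the series, 2 biological replicates at 300 min and 2 at 180 min, and the arrays at 0 and 30 min (2 each) served to define the responses. Bicuculline is an antagonist of the GABA-A receptor, through which most fast inhibition in the brain runs, and it lets excitatory networks fire more. All groups were hippocampal cells of ICR mice, an outbred laboratory strain, taken at E17.5, late in gestation, grown for 10 days and given 50 µM bicuculline, with the culture collected at 0 min as the reference. No vehicle-treated culture at a later time is named in the labels, so a change over time in culture and a change by bicuculline cannot be told apart. The labels call the replicates biological without saying whether they came from separate dissections, and each p-value reflects only how far these arrays spread.

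The platform was the Affymetrix Mouse Gene ST 1.0 array, whose probes lie along the transcript and give 1 log2 signal for each transcript cluster. Of 35399 rows, 21789 carried a single gene symbol, and the transcript cluster with the highest mean signal stood for each of 19938 genes. Olfactory receptor genes, which hippocampal cells hardly use, gave a mark of background: 95% of the 1027 such genes had a mean signal under 4.46, and 13601 genes (68.2%) lay above it. The markers fitted the labelled tissue. The glutamate transporter gene Slc17a7 had a mean log2 signal of 9.47, the excitatory neuron genes Camk2a and Neurod6 stood at 8.55 and 8.09, and Gad1 of inhibitory neurons stood at 8.97. The cultures also held other cells, since the fibroblast collagen gene Col1a1 stood at 8.06 and the astrocyte gene Gfap at 6.25. Mog of oligodendrocytes (4.53), Pecam1 of endothelium (4.08) and Mki67 of dividing cells (4.02) were near or under the background mark. Those single genes do not show that their cells were absent. Above the mark lay 7 of 11 oligodendrocyte lineage, 7 of 12 endothelial and mural and 7 of 11 dividing and progenitor markers.

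Raised firing lets calcium into neurons, and calcium signalling acts on factors already present, such as CREB and SRF, to switch on immediate-early genes without new protein. Many of these encode transcription factors, which then act on a second wave of genes for secreted factors, synaptic proteins and inhibitors of the signalling itself. Immediate-early transcripts are usually short-lived, whereas the second wave is slower and differs more between cell types.

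The promoters of 4 of the 15 largest late rises are shown as examples that hold a CREB motif. CREB, which calcium signalling activates, binds the cAMP response element, whose core is TGACG and whose full palindrome is TGACGTCA. Capitals mark TGACG, read on either strand (CGTCA on the strand shown), and the palindrome counts as a match on both strands. Each line gives the 250 bases before the gene's start, 5′ to 3′ on the gene's strand, from RefSeq, build GRCm38.p6.
Fosb, chr7:19310046-19310295, minus strand: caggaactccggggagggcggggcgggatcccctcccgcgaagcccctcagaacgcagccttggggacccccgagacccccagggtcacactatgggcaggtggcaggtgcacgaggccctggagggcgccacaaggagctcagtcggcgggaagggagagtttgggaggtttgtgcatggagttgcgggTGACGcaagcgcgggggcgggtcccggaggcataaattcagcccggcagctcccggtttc
Npas4, chr19:4989972-4990221, minus strand: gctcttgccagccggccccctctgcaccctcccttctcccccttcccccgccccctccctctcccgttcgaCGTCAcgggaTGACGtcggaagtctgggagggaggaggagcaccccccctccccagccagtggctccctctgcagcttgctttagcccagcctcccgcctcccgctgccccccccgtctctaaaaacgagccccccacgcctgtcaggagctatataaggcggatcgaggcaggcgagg
Pcsk1, chr13:75089607-75089856, plus strand: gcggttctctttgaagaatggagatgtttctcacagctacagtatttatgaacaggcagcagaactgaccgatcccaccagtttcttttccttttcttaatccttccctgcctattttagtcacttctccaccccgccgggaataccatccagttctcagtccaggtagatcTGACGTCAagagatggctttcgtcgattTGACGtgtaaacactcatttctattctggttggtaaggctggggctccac
Nr4a1, chr15:101266596-101266845, plus strand: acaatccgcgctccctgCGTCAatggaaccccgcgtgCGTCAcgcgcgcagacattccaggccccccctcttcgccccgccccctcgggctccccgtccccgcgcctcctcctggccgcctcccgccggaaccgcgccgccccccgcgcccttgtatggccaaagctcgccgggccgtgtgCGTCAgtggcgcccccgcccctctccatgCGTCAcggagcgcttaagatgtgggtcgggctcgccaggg

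Of the 15 largest rises the promoters of 14 were searched for this count. A match was present in 11 of them, while Fezf2, Grasp and Spry2 had 0. Lipg was left out of the count, which says nothing about a match in its promoter. Fosb had 1 match, Npas4 2, Pcsk1 3 (the palindrome and 1 more) and Nr4a1 4. Over the window from 250 bases before to 50 after the start, TGACG was present in 38 of the 62 late-rising genes with a listed promoter (61.3%), in 12 of 43 late-falling genes (27.9%) and in 4369 of all 15614 genes (28.0%). TGACGTCA was present in 5 late rises (8.06%), Kif18a, Maff, Nectin2, Pcsk1 and Scg2, against 0 late falls and 2.72% of all genes. The AP-1 motif TGANTCA was present in 6.45% of rises, 4.65% of falls and 8.08% of all genes, and the CArG box that SRF binds in 0 rises, 1 fall and 1.63% of all genes. The promoters of the rises were also richer in G and C, with a median of 63.8% against 60.7% for falls and 57.5% for all genes, and held a median of 21.5 CG pairs against 18.5 and 15. Genes could have several listed promoters, on average 1.37, 1.42 and 1.23 in the same order. These are counts of letters in a window, and the part of base composition in them was not tested.

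Transcript clusters of 2 miRNA genes, Mir212 and Mir670, were among the late rises. The transcript cluster of Mir212 rose by 0.70 on the log2 scale over the late times (limma adjusted p = 0.024), with 6.49 and 6.46 at 0 min, 7.36 and 7.08 at 180 min and 7.21 and 7.09 at 300 min. Its neighbour on chromosome 11, Mir132, encodes a miRNA with the same seed, as the mature sequences show with the seed (bases 2 to 8) in capitals.
mmu-miR-212-3p: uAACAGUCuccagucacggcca
mmu-miR-132-3p: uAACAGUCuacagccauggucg
Mir670 read 4.98 and 4.99 at 0 min, 5.68 and 5.29 at 180 min and 5.70 and 5.59 at 300 min, with a late rise of 0.58 (limma adjusted p = 0.040). Both genes overlapped between the late times.
The array reads the transcript cluster and not the mature miRNA, so nothing is measured here about the mature forms.

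Between 180 and 300 min no gene passed the test. With limma's moderated test over 19938 genes, 0 were higher (0.00%) and 0 lower (0.00%) at 300 min at an adjusted p under 0.05, and the lowest adjusted p was 0.529. Without replicate 2 at 180 min 14 genes passed, of which Lypd6b and Rny1 lay above the background mark, and without replicate 1 or replicate 2 at 300 min 1 and 2 genes under the mark passed. At an unadjusted p under 0.05 there were 1141 genes (5.72%), of which 464 (2.33%) were higher and 677 (3.40%) lower at 300 min. A log2 difference of at least 0.5 separated the means of 103 genes (0.517%), and a difference of at least 1 separated 2 (0.0100%), Dnah7b and Ifna12, both under the background mark. The 95% interval of a gene's difference had a median half-width of 0.28 before any adjustment, and differences well above that did not pass. They reached 0.74 in Hnrnpr among the genes named above background, and 0.90 among all genes above background. The SD of the differences between arrays was 0.23 for the 180 min replicates and 0.22 for the 300 min replicates. Across the times it was 0.20 and 0.21 for replicate 2 at 180 min with replicates 1 and 2 at 300 min, and 0.23 and 0.26 for replicate 1 at 180 min with the same arrays.

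Direction depended on brightness in the deposited values. The median difference of 300 minus 180 min was -0.05 in the dimmest of 4 equal groups of genes, -0.03 and 0.03 in the next groups and 0.06 in the brightest, and after quantile normalization it lay between -0.001 and 0.008 in each. Replicate 1 at 180 min had the narrowest range of signals, with an SD over genes of 1.67 against 1.70 to 1.75 on the other 7 arrays. Its olfactory receptor genes had a median of 3.44, against 3.27 to 3.39 on the others. The medians of gene groups are therefore given with their value after quantile normalization.

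Which genes made up the late response was decided without favouring either late time, from the mean of the 180 and 300 min arrays against 0 min. By limma, 79 genes rose (0.396% of those tested) and 55 fell (0.276%). Taken singly against the same 0 min arrays, 42 genes rose (0.211%) and 24 fell (0.120%) at 180 min, and 45 rose (0.226%) and 12 fell (0.0602%) at 300 min. By their interval, 111 of these 134 held (82.8%), meaning that the 95% interval of 300 minus 180 min included 0 and lay within 0.5 of it. This is close to the 81.4% of all genes and 83.6% of those above background that met the same criterion, so the share says nothing particular about the responders. It was below that of all genes when a late array was left out: 56.0% against 65.5% and 41.8% against 55.4% without replicates 1 and 2 at 180 min, and 48.2% against 56.0% and 50.5% against 61.5% without replicates 1 and 2 at 300 min. A further 16 were undecided, with an interval that included 0 and reached past 0.5, against 12.9% of all genes. In 2 genes (1.49%) the interval lay past 0 in the direction of the response, and in 5 (3.73%) in the opposite direction. Over all genes the interval left out 0 in 5.72%, with 2.33% higher and 3.40% lower at 300 min. Measured against their own response, 30 of the 134 had an interval within 50% of their late change on either side of 0, 23 rises and 7 falls. At the edge of the choice, Ttc26 was the last gene in (late change -0.53, difference 0.07) and Dlx1as the first out (0.57 and -0.09). The choice itself rests on few arrays. Without replicate 1 or replicate 2 at 0 min, 28 and 43 genes were called, 22 and 28 of them among the 134, without either 30 min array 75 were, and without replicate 1 at 300 min 56 were. With every row of the table tested 7 genes were called, all rises, and quantile normalization gave 100 rises and 37 falls.

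**Figure D1:**
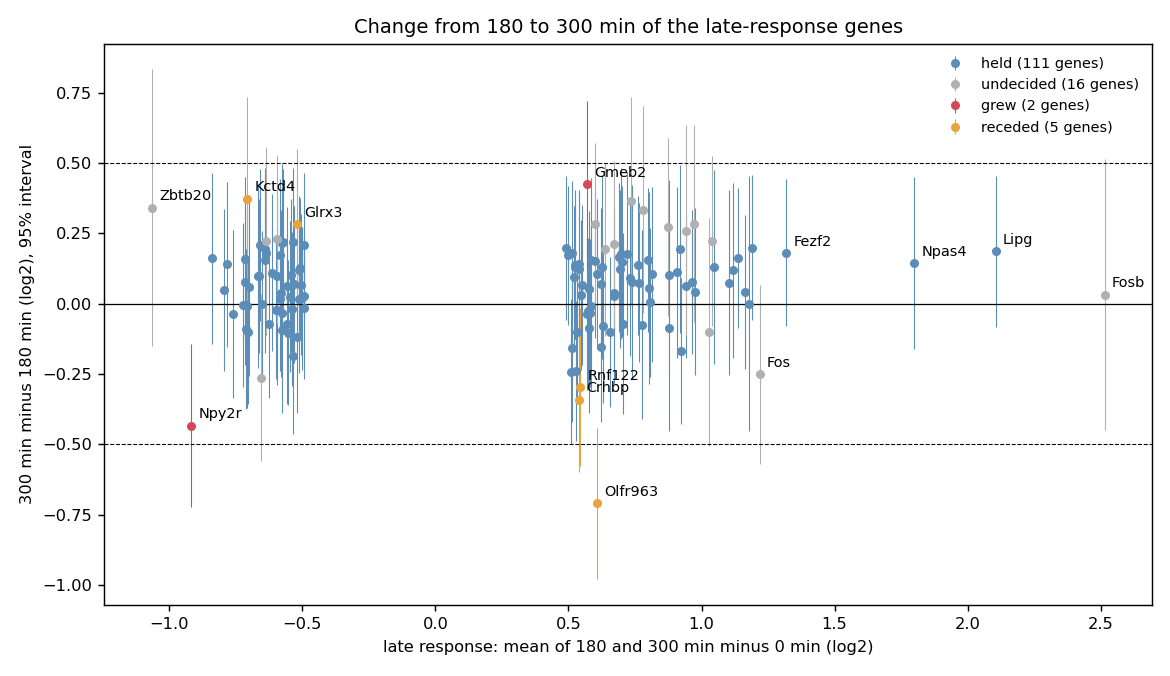
Each point is 1 of the 134 late-response genes, with its late change (mean of 180 and 300 min minus 0 min, log2) on the horizontal axis and 300 minus 180 min (log2) on the vertical axis; bars are 95% intervals from limma, dashed lines mark 0.5 either side of 0, and colours give the classes described in the text. The 79 rises lie to the right and the 55 falls to the left, and most points lie within the dashed lines at every size of late change.

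Against 0 min, which the choice used, the rises had a median change of 0.68 at 180 min and 0.78 at 300 min. Their median difference of 300 minus 180 min was 0.09, with 58 of 79 above 0. Over all genes the median was 0.01 with 52.5% above 0, and over genes above background 0.03 with 59.0%. In the 2 brighter of the 4 groups by brightness 58.9% and 70.2% of genes were above 0. Of the rises 36 and 31 lay in these groups, and of the falls 31 and 11. After quantile normalization the median of the rises was 0.06 with 51 above 0, against 0.005 and 51.2% over all genes. The falls had medians of -0.65 and -0.56 against 0 min, and their median difference was 0.06, with 36 of 55 above 0 (0.06 and 37 after quantile normalization). The 180 and 300 min comparisons share the 0 min arrays. The 2 arrays at 300 min lay wholly to one side of the 2 at 180 min for 25 of 79 rises and 18 of 55 falls, that is 31.6% and 32.7%, against 33.1% of all genes and 32.5% of those above background.

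Of 29 immediate-early transcription factor genes 8 were late rises and 1, Egr1, fell, against 0.396% and 0.276% of all genes tested. The lists were chosen with earlier results of these data known, so counts of late responders in them are not a test. Fosb, a subunit of the AP-1 factor, read 5.07 and 5.34 at 0 min, 8.11 and 7.29 at 180 min and 7.45 and 8.02 at 300 min. The late arrays overlapped and all stood far above 0 min: a 5.72-fold late rise (limma adjusted p = 2.1e-05) with a difference of 0.03 ± 0.22 (SE) between the late times. Npas4, a neuronal factor that responds to calcium and acts on inhibitory synapses, read 5.67 and 5.96 at 0 min, 7.65 and 7.43 at 180 min and 7.54 and 7.83 at 300 min. It was 3.48-fold up over the late times, and the late times differed by 0.14 ± 0.14, with overlapping arrays. Nr4a1, an orphan nuclear receptor, read 8.14 and 7.86, then 8.03 and 8.12, against 6.71 and 7.16 at 0 min. Its late times overlapped too, with a difference of 0.07 ± 0.15. Fos, the partner of Jun in AP-1, read 7.65 and 7.38 at 180 min and 7.05 and 7.47 at 300 min, against 6.11 and 6.23 at 0 min. Its difference of -0.25 had a 95% interval from -0.57 to 0.07, which includes 0, and its arrays overlapped.

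Replicates of several of these factors disagreed at the late times. Nr4a2, a nuclear receptor of the same family, read 8.53 and 7.82 at 180 min and 7.86 and 8.49 at 300 min, a difference of 0.00 with an interval from -0.45 to 0.45. Atf3, a stress-responsive factor, read 6.15 and 5.81, then 5.54 and 6.22, and Junb read 6.39 and 5.85, then 5.82 and 6.21. The late rises of Nr4a2 and Atf3 each missed the threshold under 3 of 16 alternative settings, 1 of them the fit without replicate 1 at 0 min. In each of these genes replicate 1 was the higher at 180 min and replicate 2 the higher at 300 min. Of 29 immediate-early transcription factor genes, 21 had that order (72.4%), against 22.3% of all genes and 17 of the 79 rises. The median SD between replicates was larger for this list than over all genes at 180 min (0.19 against 0.10) and smaller at 300 min (0.07 against 0.10), 0 min (0.06 against 0.09) and 30 min (0.05 against 0.08). The pattern was noticed after the values were seen and was not tested.

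The late rises held 4 of 25 neuropeptide precursor and processing genes and 2 of 23 neurotrophin and growth factor genes, against 0.396% of all genes. Bdnf, a neurotrophin that strengthens synapses, read 6.23 and 6.03 at 0 min, 7.16 and 7.38 at 180 min and 7.28 and 7.34 at 300 min. It rose 2.24-fold over the late times (limma adjusted p = 1.2e-04), and its late arrays overlapped, with a difference of 0.04 and an interval from -0.23 to 0.31. Pcsk1, the convertase that cuts peptide precursors, read 7.78 and 8.22, then 8.18 and 8.06, against 6.95 and 6.93. Penk, the enkephalin precursor, read 6.23 and 6.65, then 6.69 and 6.40, against 5.58 and 5.64. Both overlapped between the late times, as did Scg2, a granin of secretory granules, with a difference of -0.10. Lipg, a secreted lipase, had the second largest rise, 4.30-fold: it read 5.16 and 5.15 at 0 min, 7.06 and 7.27 at 180 min and 7.34 and 7.37 at 300 min. Both 300 min arrays lay above both 180 min arrays, by 0.19 on average, with an interval from -0.08 to 0.46. Inhba, the activin A subunit, was less settled: it read 5.62 and 6.21, then 6.29 and 6.12, against 5.04 and 5.14, a difference of 0.28 ± 0.16.

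Of 24 postsynaptic scaffold and adhesion genes 2, Grasp and Homer1, were late rises, against 0.396% of all genes, and some receptor genes were too. Gpr3, a receptor that raises cAMP without a known need for a ligand, read 6.78 and 6.64 at 180 min and 6.85 and 6.89 at 300 min, against 5.65 and 5.65. Grasp, a scaffold of postsynaptic receptors, read 6.62 and 6.56, then 6.90 and 6.68, against 5.51 and 5.49. In both genes the 300 min arrays were the higher, with differences of 0.16 ± 0.12 and 0.20 ± 0.12 and intervals that included 0. Homer1, a scaffold of metabotropic glutamate receptors, differed by 0.16, and Nrn1, a membrane-anchored protein of growing neurites, by 0.27 with an interval from -0.04 to 0.59. Fezf2, a transcription factor of deep-layer projection neurons, read 8.18 and 8.33, then 8.37 and 8.50, against 6.96 and 7.10. Its late times did not overlap, and their difference of 0.18 ± 0.12 was small beside its 2.49-fold late rise.

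The late rises included inhibitors of the signalling itself. Dusp4, a phosphatase of MAP kinases, read 8.15 and 8.02 at 180 min and 8.45 and 8.11 at 300 min, against 7.17 and 7.37, and Spry2, a brake on receptor tyrosine kinase signalling, read 8.22 and 8.45, then 8.54 and 8.58, against 7.21 and 7.60. Rgs2, which speeds the shut-off of G proteins, read 9.08 and 9.25 at both late times, against 8.29 and 8.43. Spry2 arrays did not overlap and its difference was 0.22 with an interval from -0.08 to 0.53. The 24 measured MAP kinase feedback genes had a median difference of 0.01 (-0.03 after quantile normalization). Of these 24 genes 4 were late rises, against 0.396% of all genes. The circadian genes Per1 and Per2, which CREB can induce, had differences of 0.06 and 0.09.

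**Figure D2:**
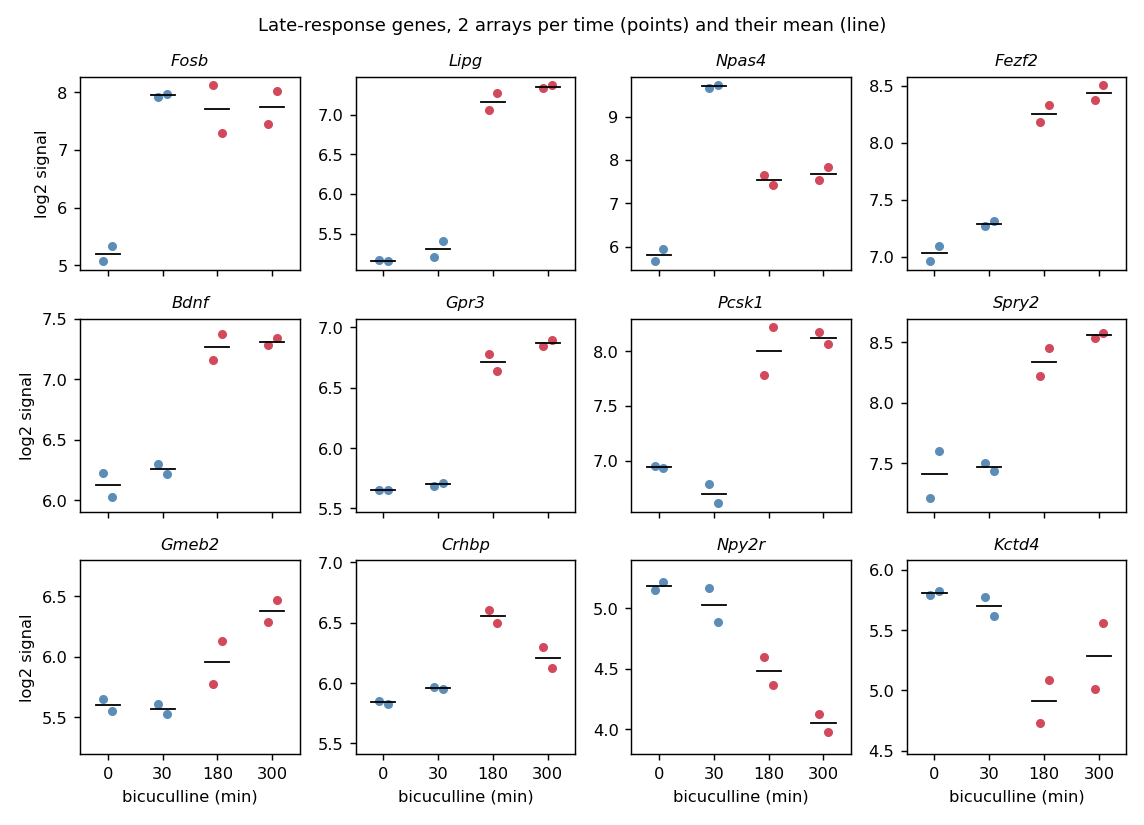
Log2 signal of 12 late-response genes at 0, 30, 180 and 300 min of bicuculline; each point is 1 array (2 per time, late times in red) and the bar is their mean. The late points of Fosb spread from 7.29 to 8.11 and overlap between times, and those of Bdnf stay between 7.16 and 7.38. The points of Gmeb2 and Npy2r lie further from 0 min at 300 min than at 180 min, but neither gene passed the adjusted test.

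In 7 of the 134 late-response genes the interval left out 0, and none of them passed the adjusted test. Over all genes 5.72% had such an interval, so the count says nothing particular about the responders. Gmeb2, a factor that modulates glucocorticoid responses, read 5.65 and 5.55 at 0 min, 5.78 and 6.13 at 180 min and 6.29 and 6.47 at 300 min. Both 300 min arrays lay above both 180 min arrays, and the difference was 0.42 with an interval from 0.13 to 0.72 (limma adjusted p = 0.852). Npy2r, a receptor for neuropeptide Y, went the other way: it read 5.15 and 5.22 at 0 min, 4.60 and 4.37 at 180 min and 4.12 and 3.98 at 300 min. Its arrays did not overlap, the difference was -0.43 with an interval from -0.72 to -0.14 (limma adjusted p = 0.852), and at 300 min it stood under the background mark.

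Crhbp, which binds the stress peptide corticotropin-releasing hormone, was nearer to 0 min at 300 min than at 180 min. It read 5.85 and 5.83 at 0 min, 6.60 and 6.50 at 180 min and 6.30 and 6.12 at 300 min, with no overlap and a difference of -0.34 (interval -0.60 to -0.08). Rnf122, a RING finger gene, read 5.89 and 6.08, then 5.64 and 5.73, against 5.15 and 5.43, a difference of -0.30. The third rise, Olfr963, is an olfactory receptor gene at 3.98 and 3.89, then 3.19 and 3.26, under the background mark on every array. Among falls, Kctd4, a gene of the potassium channel tetramerisation domain family, read 5.79 and 5.82 at 0 min, 4.73 and 5.09 at 180 min and 5.01 and 5.55 at 300 min. Its arrays overlapped and its difference was 0.37 with an interval from 0.01 to 0.73; its late fall missed the threshold after quantile normalization (limma adjusted p = 0.054). Glrx3, a glutaredoxin, read 5.65 and 5.50, then 5.79 and 5.92, against 6.14 and 6.32, a difference of 0.28.

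The other falls included regulators of chromatin and growth. Zbtb20, a repressor that specifies hippocampal pyramidal neurons, had the largest fall and the widest spread, with 8.51 and 7.70 at 0 min, 6.56 and 7.18 at 180 min and 7.24 and 7.19 at 300 min. Its difference of 0.34 ran from -0.15 to 0.83, and its fall itself missed the threshold when a gene's transcript clusters were averaged (limma adjusted p = 0.060). Tgfbr1, a receptor for TGF-beta, read 5.31 and 5.04, then 5.10 and 5.35, against 5.93 and 6.07, and Kmt2c, a histone methyltransferase, read 5.46 and 5.57, then 5.67 and 5.64, against 6.56 and 6.17. The first overlapped between the late times with a difference of 0.05, and the second did not, with 0.14. Trps1 (0.16), Itga6 (-0.09), Cabp7 (0.16), Mtr (-0.00) and Nbeal1 (0.08) completed the 10 largest falls that are named, with intervals that included 0 in each. These falls lean on the 0 min arrays: without replicate 1 there Zbtb20, Trps1, Tgfbr1, Kmt2c, Mtr, Nbeal1 and Kctd4 missed the threshold, and without replicate 2 Tgfbr1, Mtr, Cabp7, Nbeal1, Itga6 and Kctd4 did, while Npy2r passed without either.

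Genes that responded at 30 min were chosen on arrays other than those at 180 and 300 min, which entered only the shared estimate of the variance. At 30 against 0 min 16 genes rose (0.0802% of those tested) and 3 fell (0.0150%). The 16 rises had median changes against 0 min of 1.40, 0.37 and 0.31 in order of time, and their median difference of 300 minus 180 min was 0.01, with 8 above and 8 below 0 (-0.01 after quantile normalization). Gadd45g, a stress and growth arrest gene, was the 1 of these 16 with an unadjusted p under 0.05, against 5.72% of all genes. Gadd45g read 7.63 and 7.30, then 7.11 and 7.22, against 6.73 and 6.88 at 0 min. The difference was -0.30 with limma adjusted p = 0.852.

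Some early genes stood near their starting level at both late times. Arc, which takes AMPA receptors from synapses, read 5.84 and 5.94 at 0 min, 8.28 and 8.27 at 30 min, 5.77 and 6.08 at 180 min and 6.24 and 6.06 at 300 min. Btg2, an antiproliferative gene, read 6.61 and 6.24, then 6.49 and 6.55, against 6.33 and 6.52, and Dusp1, a nuclear MAP kinase phosphatase, read 7.24 and 7.46, then 7.38 and 7.46, against 7.33 and 7.49. In Arc and Btg2 the 180 min arrays reached to both sides of the 0 min arrays, and in Dusp1 the arrays of both late times overlapped those at 0 min. Egr1, a zinc finger factor, stood under its starting level: 6.10 and 5.81 at 180 min and 5.79 and 5.99 at 300 min against 6.47 and 6.49, a late fall of 0.56 on the log2 scale (limma adjusted p = 0.045). Other early genes stayed above their starting level, in comparisons that share the 0 min arrays. At 30 min Npas4 stood 3.88 above 0 min, and the late times stood 1.73 (180 min) and 1.87 (300 min) above it. Fosb was 2.74 above 0 min early on, then 2.50 and 2.53.

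**Figure D3:**
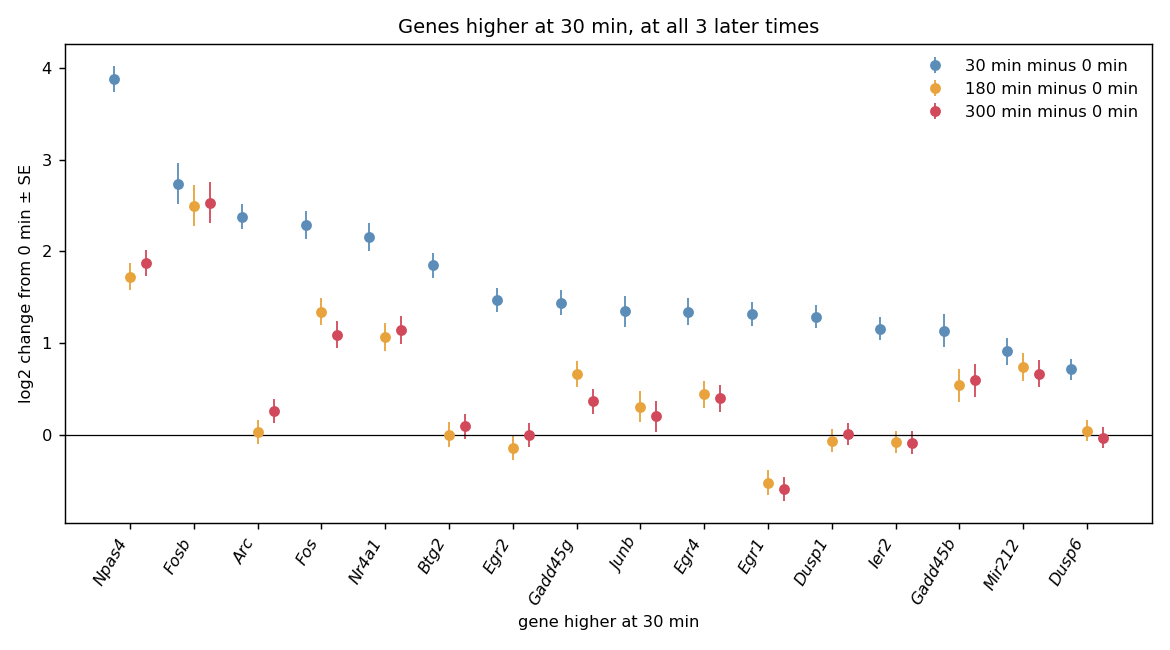
Log2 change against 0 min (vertical axis, ± SE from limma) at 30, 180 and 300 min for the 16 genes that rose at 30 min. Arc, Btg2, Dusp1, Dusp6, Egr2 and Ier2 lie near 0 at both late times, Egr1 lies below 0, and Fosb stays near its 30 min value; the changes share the 0 min arrays.

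Outside the responders, genes above background are listed whose 180 and 300 min arrays did not overlap, as in 32.5% of all genes above background. Those with the smallest p are given for their values only, since none passed. Lower at 300 min, Fbln5, an elastic fibre protein, read 7.13 and 7.12 at 180 min and 6.52 and 6.46 at 300 min. The times differed by -0.64 ± 0.12 (limma adjusted p = 0.529), and the 0 min mean of 6.81 lay between. Lcn2, a secreted iron-binding protein of reactive astrocytes, read 9.51 and 9.32, then 8.73 and 8.63, around a 0 min mean of 9.07. Steap4, a metalloreductase, Rassf4, Crebrf, Nfe2l2, the master factor of the antioxidant response, and Icam1, an adhesion molecule that NF-kappaB induces, had differences from -0.63 to -0.50. H2bc3, Odf3 and Krtap5-2 had differences of -0.50, -0.56 and -0.62 and stood close to background except Krtap5-2, at a mean of 5.67.

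Higher at 300 min, Hnrnpr, an RNA-binding protein, read 6.86 and 6.87 at 180 min and 7.91 and 7.31 at 300 min, a difference of 0.74 ± 0.16 (limma adjusted p = 0.768). The 300 min replicates themselves differed by almost as much, and the 0 min mean was 7.10. Zfyve16, an endosomal protein, read 4.79 and 4.89, then 5.31 and 5.28, and Tubgcp5, part of the complex that nucleates microtubules, read 4.62 and 4.84, then 5.13 and 5.31. Rhebl1, Zbtb8b, Bspry, Nol10, Abhd17b, Dis3, the catalytic subunit of the RNA exosome, and H1f7 had differences from 0.42 to 0.48.

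**Figure D4:**
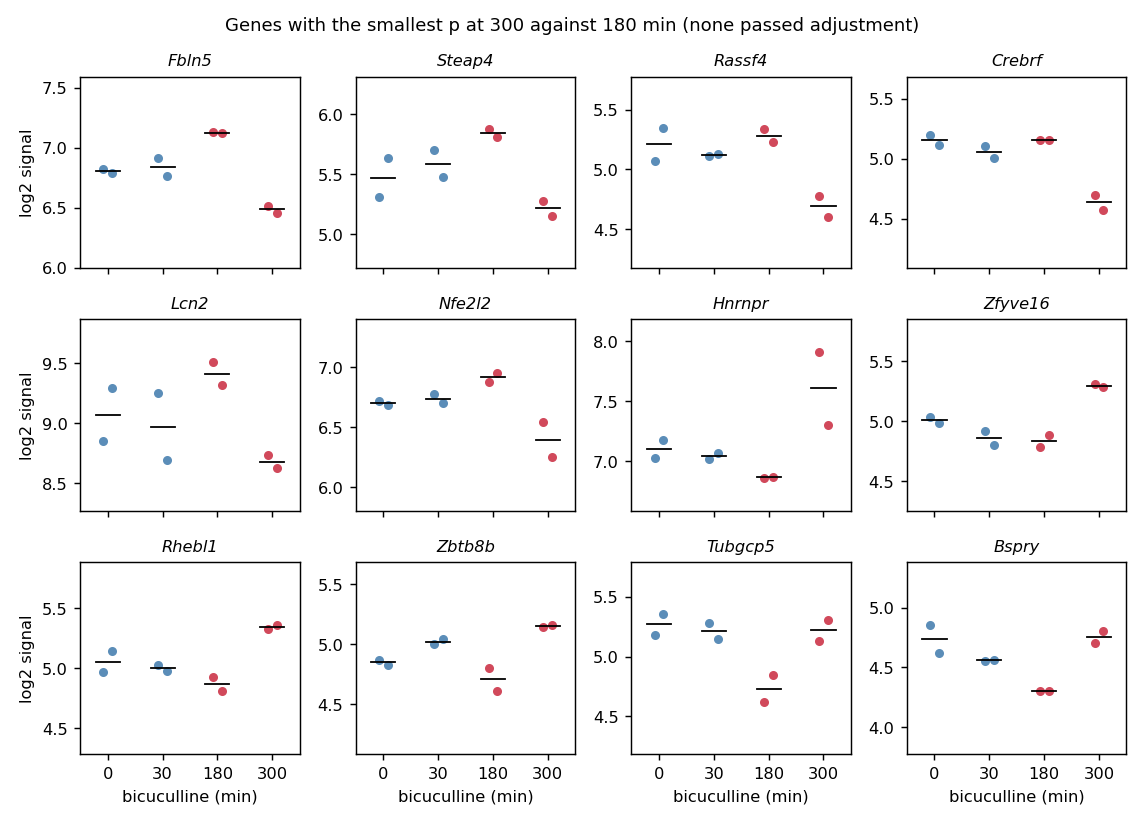
Log2 signal of 12 genes at 0, 30, 180 and 300 min, where each point is 1 array (2 per time) and the bar is their mean. The genes are the 6 lower and 6 higher at 300 min with the smallest p, among genes above background chosen for 180 and 300 min arrays that did not overlap. Fbln5 sits at 7.12 to 7.13 at 180 min and 6.46 to 6.52 at 300 min, and none of the 12 genes passed the adjusted test.

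Gene lists were compared by their medians and counts, and 0 members of any list passed at 300 against 180 min. The 44 measured genes known as delayed activity-regulated genes of neurons had a median change of 0.45 at 180 min and 0.51 at 300 min. Their median difference was 0.08 with 29 above 0 (0.05 after quantile normalization, 0.02 without replicate 1 and 0.14 without replicate 2 at 180 min). Late rises made up 19 of them, against 0.396% of all genes. Of the 19, 16 held, a criterion that 81.4% of all genes met. The 29 immediate-early transcription factor genes had 0.24 and 0.20, a difference of -0.03 with 13 above 0 (-0.05 and 10 after quantile normalization). Klf4, a zinc finger factor, was their lowest, at 5.98 and 6.05, then 5.67 and 5.44, a difference of -0.46. Rapid effector genes (21) had a median of 0.05, 0.003 after quantile normalization. Without replicate 1 at 180 min the immediate-early median was 0.07, and without replicate 2 it was -0.09.

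Some lists lay slightly above the median of all genes. RNA polymerase II and mRNA processing had a median difference of 0.12 with 19 of 23 above 0 (0.08 and 17 after quantile normalization), led by Cdk7, a kinase of general transcription, at 5.88 and 5.89, then 6.46 and 6.24. The splicing kinase gene Clk4 read 7.05 and 6.98, then 7.24 and 7.43. Sodium, calcium and HCN channels had 0.07 with 21 of 24 above 0 (0.03 and 17), from -0.25 against 0 min at 180 min to -0.13 at 300 min, with the calcium channel genes Cacna2d1 (0.30), Cacna1h (0.28) and Cacna1g (0.28) at the top. Axon guidance and adhesion had 0.10 with 31 of 37 above 0 (0.05 and 27), and postsynaptic scaffolds 0.09 with 20 of 24 (0.04 and 17). Glycolysis had 0.10 with 18 of 19 above 0 (0.05 and 12), with Ldha, which makes lactate, at 9.95 and 9.99, then 10.45 and 10.11. Cholesterol biosynthesis had 0.09 with 16 of 19 (0.03 and 11), and GABA receptors and handling 0.08 with 12 of 16 (0.04 and 10), where Gabrb2 read 8.01 and 8.09, then 8.23 and 8.62. Heat shock proteins had 0.08 with 13 of 18 (0.03 and 11). Synaptic vesicle genes had 0.06, and -0.001 after quantile normalization. Each of these medians was lower after quantile normalization. With a compared array left out the median of the channel list was 0.02 and 0.14 without replicates 1 and 2 at 300 min. That of the heat shock list was 0.01 without replicate 2 at 300 min and 0.15 without replicate 2 at 180 min. The cholesterol list had 0.04 without replicate 2 at either time, the axon guidance and postsynaptic lists 0.06 and 0.04 without replicate 1 at 300 min, and the GABA list 0.15 without replicate 2 at 180 min, 0.13 without replicate 2 at 300 min and 0.05 without replicate 1 at either time. Other lists of cell machinery had no settled sign. Cytosolic ribosomal proteins had -0.005 with 12 of 21 below 0 (-0.07 and 17). Lysosome genes had 0.006 (-0.05), respiratory chain 0.05 (-0.01), chromatin and transcription machinery 0.03 (-0.02) and glutamate receptor subunits 0.04 (-0.01).

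Other lists lay below it. The unfolded protein and amino acid response list had a median of -0.06 with 17 of 25 below 0 (-0.11 and 21 after quantile normalization). Without replicate 2 at 180 min its median was -0.11. At an unadjusted p under 0.05, where 3.40% of all genes were lower, 4 members were lower and 0 higher, a count not tested. They were Phgdh, which starts serine synthesis, at 6.44 and 6.36, then 6.02 and 5.85, Ddit3, a factor of endoplasmic reticulum stress, at 6.84 and 6.90, then 6.71 and 6.34, the cystine transporter gene Slc7a11 at -0.30 and Atf5 at -0.29. NF-kappaB and cytokine genes had -0.11 with 14 of 19 below 0 (-0.10 and 14; -0.05 without replicate 2 at 180 min), with Csf1, a growth factor of macrophages, at -0.37. Neurotrophins and growth factors had -0.05 with 14 of 23 below 0 (-0.09 and 16 after quantile normalization; -0.13 without replicate 1 at 300 min, -0.03 without replicate 2 at 180 min), where Bmp6 read 7.02 and 6.79, then 6.47 and 6.44. The potassium channel gene Kcnh5 read 5.78 and 5.60, then 5.23 and 5.28, in a list whose median was 0.01 (0.02 after quantile normalization).

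Microglia and macrophage markers had the lowest median of the lists, -0.18 with 11 of 12 below 0 (-0.17 and 11 after quantile normalization). The median was -0.10 without replicate 1 and -0.25 without replicate 2 at 180 min. In bulk RNA, fewer cells of a type and less RNA per cell cannot be told apart. Their summed signal was 9.15 and 9.02 at 180 min and 8.94 and 8.84 at 300 min on the log2 scale, without overlap, and Trem2, a lipid receptor of microglia, read 5.68 and 5.72, then 5.46 and 5.41. Aif1 and Cx3cr1, which define the type, read a mean of 5.13 and 5.07 over the 8 arrays, and P2ry12 stood under the background mark. Endothelial and mural markers summed to 9.67 and 9.39, then 9.18 and 9.05, with Acta2, the smooth muscle actin, at 9.07 and 8.66, then 8.28 and 8.12, but their median difference was 0.002 with 6 of 12 above 0 (0.02 and 7 after quantile normalization). Oligodendrocyte lineage markers had a median of -0.13 with 9 of 11 below 0 (-0.09 and 9 after quantile normalization) and sums of 8.52 and 8.53, then 8.41 and 8.43, while 4 of their 11 genes were at or under background. Timp3, an inhibitor of matrix proteases, read 8.40 and 8.23, then 7.94 and 7.90. Astrocyte markers (10.55 and 10.44, then 10.55 and 10.46), fibroblast markers (11.54 and 11.36, then 11.43 and 11.35) and pyramidal neuron markers (11.40 and 11.38, then 11.46 and 11.47) summed to like levels at both times. Whether the share of cells had a part in the lower genes named above, such as Fbln5, Lcn2 and Icam1, was not tested.

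**Figure D5:**
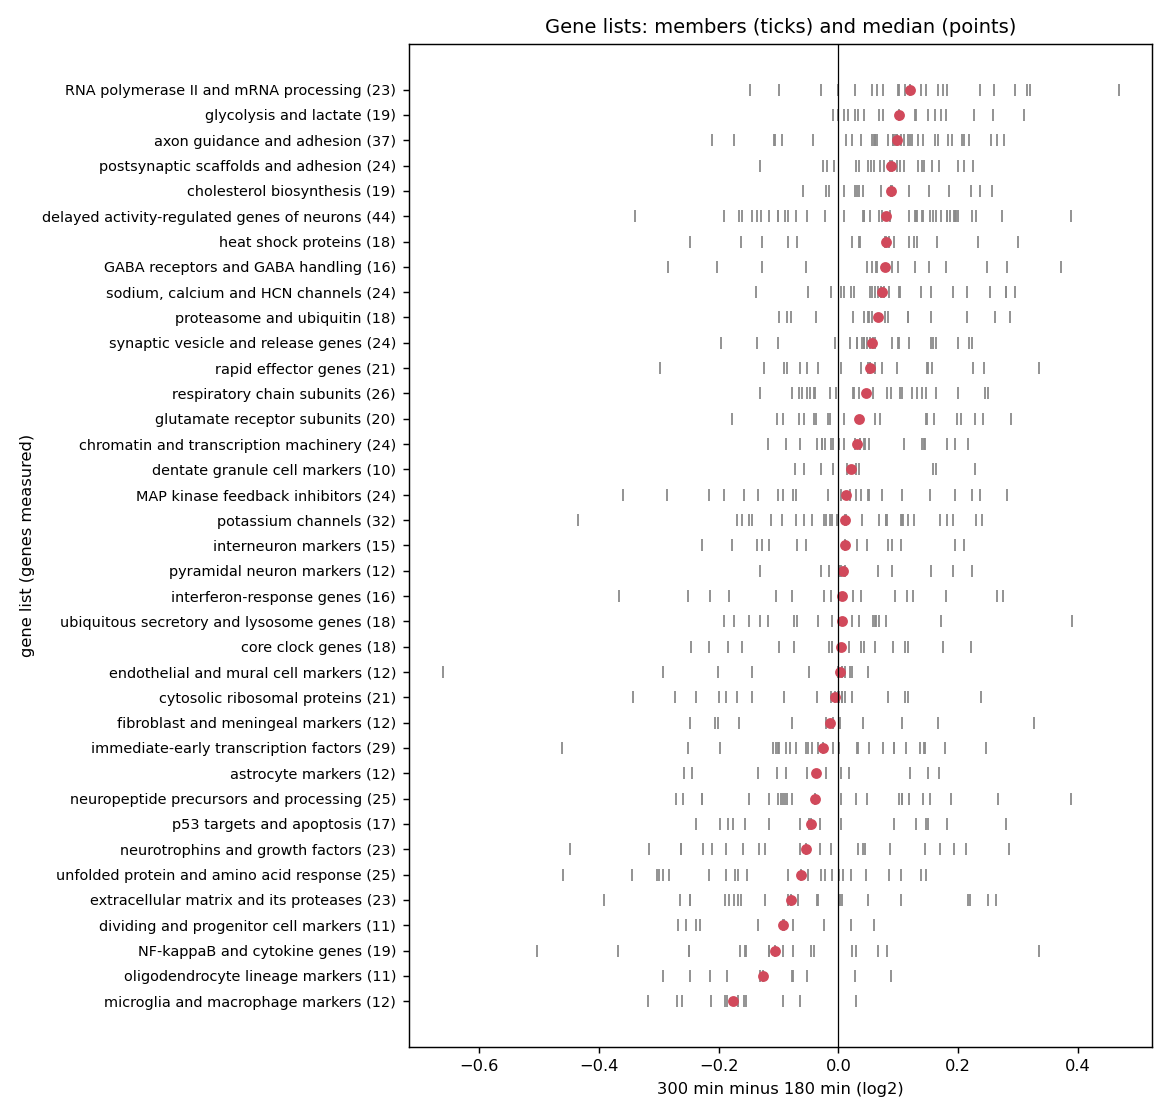
Log2 difference of 300 minus 180 min for the members of 37 gene lists with at least 5 measured genes, ordered by the list's median; grey ticks are genes and red points are medians, beside a median of 0.01 over all genes. RNA polymerase II and mRNA processing lies highest (0.12) and microglia and macrophage markers lowest (-0.18), and 0 members passed the test.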

How the data were processed

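RNA of 8 cultures was hybridised to Affymetrix Mouse Gene ST 1.0 arrays, per the labels' protocols. The deposited values are signals on a log2 scale, the base taken from their range of 1.22 to 14.96. Background correction, probe summary, normalization, software and build are not given in the sources used here, and a correction that leaves background in dim signals would shrink the differences of dim genes. Gene names came from the platform annotation (1621 rows had several symbols and 11989 none), and 21698 rows matched RefSeq by gene number. A mean per time was fitted to all 8 arrays with limma 3.58.1 in R 4.3.3 (lmFit, eBayes, 4 residual degrees of freedom, prior SD 0.133), with two-sided p-values adjusted over 19938 genes by Benjamini-Hochberg and called at 0.05. No dim gene was removed from the main analysis. Intervals of 300 minus 180 min are unadjusted 95% intervals. The number of arrays limits the precision. The fit was tested on simulated data with independent noise for each gene and array. Such data do not hold the dependence on brightness described above.

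The members and the 38 gene lists (755 of 853 entries measured) were chosen with earlier results of these data known. Named were the 10 smallest p each way at 300 against 180 min among genes above background whose arrays did not overlap, the 15 largest late rises and 10 largest late falls, genes called at 30 min, and up to 3 members of each list. Unnamed and predicted loci were left out. Other late-response genes are named after their values were seen, by class or role. Promoters were listed for 62 of 79 rises and 43 of 55 falls. Alternatives were other normalizations, filters, rows, arrays, variance models and transcript clusters, a replicate block, and leaving out each array. The 50% criterion was added after seeing the data.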

Additional observations from a re-analysis of the deposited data

How the results depend on the processing

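At 300 against 180 min 0 genes were called under quantile normalization, centring on the median, background filtering, all rows, only the arrays compared, eBayes with trend and robust, averaged transcript clusters and the replicate block. Leaving out each array in turn gave 0 to 14 genes: 14 without replicate 2 at 180 min, 1 and 2 without replicates 1 and 2 at 300 min. Of these 17, all but Lypd6b and Rny1 lay under the background mark. The late-response set of 134 held 137 genes after quantile normalization, where the split moved from 79 rises and 55 falls to 100 and 37. It held 140 after centring, 198 with trend and robust, 139 with averaged clusters, 220 among genes above background, 75 with only the arrays compared and 7 with all rows. Leaving out each array gave 28 to 122: 28 and 43 without replicates 1 and 2 at 0 min, 75 without either 30 min array, 56 without replicate 1 and 93 without replicate 2 at 300 min.

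The 111 genes that held became 182 among genes above background, 5 with all rows and 60 with only the arrays compared, and 22 to 65 with an array left out. As a share it was 82.7% against 84.4% of all genes above background and 83.2% against 82.5% after quantile normalization, 71.4% against 58.1% with all rows, and 41.8% against 55.4% without replicate 2 at 180 min. The 2 genes that went further became 4 after quantile normalization, 5 after centring, 6 above background, 0 with all rows, 1 with only the arrays compared, 7 with trend and robust, and 1 to 12 with an array left out. The 5 that went back became 0 with all rows, 1 with only the arrays compared, 12 with trend and robust, and 0 to 28 with an array left out. The 30 within 50% of their change became 7 with all rows and 17 to 37 with an array left out. The causes were not tested. For the late change, leaving out either 30 min array gives the same fit as using only the arrays compared. Those settings among the 16 are therefore not separate checks. Of 25 named late-response genes, Kctd4 and Zbtb20 missed the threshold under more settings than others (9 and 7 of 16).

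Replicate numbers were not treated as pairs in the main fit, and deviations of same-numbered arrays correlated between -0.09 and 0.09. These correlations cannot tell whether same-numbered arrays came from the same dissection, since array noise enters each deviation. With the replicate block 120 genes were called late, 112 of them among the 134, and 97 held, 3 went further, 4 went back and 31 lay within 50% of their change.

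Of 37 list medians 22 kept their sign with each compared array left out and 15 changed it, and 20 kept it after quantile normalization as well. With 2 arrays a time no gene passed at 300 against 180 min. The largest absolute difference was 0.90 among genes above background and 1.26 over all genes. It was 0.74, in Hnrnpr, among the genes named above background.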
